A study of Mus musculus with 6 samples.

Results

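A set of 8 long noncoding RNAs (lncRNAs) known from retina and brain, *Meg3*, *Rian*, *Mirg*, *Miat*, *Malat1*, *Neat1*, *Snhg11* and *Snhg14*, was looked up by gene symbol among 11339 genes measured by RNA-seq in mouse retina at P14. Of these, 7 of 8 were found, and *Rian* was not analysed here. RNA came from 3 *Mll1KO* and 3 WT samples, each pooled from a pair of retinas. *Mll1KO* mice were MLL1 fl/fl with Chx10-Cre, which drives Cre in progenitors of the retina, so that *Mll1*, a histone H3 lysine methyltransferase gene, was deleted by way of those progenitors. The labels give the WT mice no floxed allele and no Cre, so the control retinas carried no Cre. Both groups had the strain label C57Bl6/J, and both sexes were used in the study. The comparison asked how loss of *Mll1* in the developing retina changes the transcriptome at P14.

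Levels are given as RPKM, which is reads scaled by the length of the gene and by the total of the library. For *Meg3* that length was 18089 bases, all annotated exons together, though 1 of its annotated transcripts has 1498. RPKM therefore understates a gene whose RNA is mostly a shorter transcript, which limits comparison between genes. Reads were recovered from RPKM, and the WT libraries a, b and c had totals of 23836033, 19777205 and 19323512 reads. Those of *Mll1KO* had 23348923, 19855963 and 17961097 reads. All 7 lncRNAs had passed the authors' filter of a CPM above 5 in at least 5 libraries. The fewest reads of any of them in any library were 300, for *Mirg* in *Mll1KO* c, and the most were 59467, for *Malat1* in WT a. The targeted gene was examined before the lncRNAs. *Kmt2a*, the current symbol of *Mll1* (ENSMUSG00000002028, chromosome 9), had an RPKM of 36.1, 36.9 and 34.6 in WT and of 22.9, 20.4 and 22.3 in *Mll1KO*. All 3 *Mll1KO* samples lay below all 3 WT samples, with a log2 fold change of -0.69 (SE 0.05, limma adjusted p = 2.77e-05), and the value counts reads of all exons, the undeleted ones included. *Xist*, the lncRNA that silences the inactive X chromosome in female cells, differed between libraries, and the labels give no sex. Its RPKM was 71.7, 75.8 and 72.5 in WT, 130 and 128 in *Mll1KO* a and c, and 0.590 in *Mll1KO* b, where 210 reads were counted. *Mll1KO* b thus stood far below all others, and *Mll1KO* a and c stood above all WT libraries. Fold changes of the called lncRNAs are also given without *Mll1KO* b, which leaves *Xist* higher in *Mll1KO* than in WT, and that of *Kmt2a* was -0.65 without it.

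Nuclear lncRNAs do much of their work inside the nucleus. *Malat1* RNA gathers in nuclear speckles, which hold splicing factors. *Neat1* is the architectural RNA around which paraspeckles form. *Miat*, also named Gomafu or RNCR2, is a neuronal lncRNA that stays in the nucleus and was described early on in developing retina. *Meg3* and *Mirg* are transcribed from the maternal chromosome of the imprinted Dlk1-Dio3 region, where *Mirg* is a host of microRNAs. *Snhg14* is transcribed from the paternal chromosome of the Prader-Willi/Angelman region, hosts small nucleolar RNAs (snoRNAs) and runs antisense to *Ube3a*. *Snhg11* is a brain-enriched snoRNA host gene.

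*Malat1* and *Miat* were lower and *Snhg11* was higher in *Mll1KO* than in WT, while *Meg3*, *Mirg*, *Snhg14* and *Neat1* did not pass the test. Thus 3 of 7 lncRNAs were called at a limma adjusted p under 0.05, beside 23.3% of all 11339 genes, and 7 genes are too few to read a share from. The groups did not overlap for the same 3 of 7 (42.9%), beside 4657 of all genes (41.1%). Among all genes, 2643 were called, 999 higher (8.81% of the genes tested) and 1644 lower (14.5%). The direction of these calls depended on how libraries were scaled, as 37.8% of called genes were higher with the library totals, 51.9% with TMM factors, 53.1% with RLE factors, 52.8% with upper-quartile factors and 2.28% with an equal sum over rod genes. The count fell to 1704 genes without WT b and to 1757 genes without *Mll1KO* c. Fold changes are on the log2(RPKM + 1) scale, which understates the change of weakly expressed genes. The median log2 fold change was -0.02 over the 7 lncRNAs and -0.03 over all genes.

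*Malat1* (ENSMUSG00000092341) lies on the minus strand of chromosome 19 at chr19:5795690-5802672 in GRCm38 and is annotated as a lincRNA with an exon length of 6983 bases. Its RPKM was 357, 430 and 411 in WT a, b and c and 294, 268 and 266 in *Mll1KO* a, b and c. Each *Mll1KO* library was below each WT library, and WT a was the lowest of the controls. The mean fell from 399 ± 37.7 (SD, n = 3) to 276 ± 15.5 (SD, n = 3), or 69.1% of WT. This is a log2 fold change of -0.53 (SE 0.07, limma adjusted p = 0.000804). Without *Mll1KO* b it was -0.51. *Malat1* took between 0.186% and 0.3% of the reads of a library and ranked 53 of the 11339 genes by mean RPKM. In bulk retina, fewer cells of a type that holds much *Malat1* and less *Malat1* RNA per cell cannot be told apart, and the same holds for every gene below.

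*Miat* (ENSMUSG00000097767) lies on the minus strand at chr5:112213228-112229395 and is a lincRNA of 9293 exon bases. Its RPKM was 16.46, 17.96 and 16.96 in WT a, b and c and 12.02, 12.25 and 9.49 in *Mll1KO* a, b and c. The groups did not overlap, and *Mll1KO* c stood below the other 2 knockout libraries. The mean fell from 17.1 ± 0.761 (SD, n = 3) to 11.3 ± 1.53 (SD, n = 3), which is 65.7% of WT. The log2 fold change of -0.57 (SE 0.08, limma adjusted p = 0.00125) had a 95% confidence interval of -0.76 to -0.38, which overlaps that of *Malat1*, -0.69 to -0.37, so the 2 decreases are not ranked. Without *Mll1KO* b it was -0.63.

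*Snhg11* (ENSMUSG00000044349) lies on the plus strand at chr2:158375638-158386145. GENCODE gives it the biotype protein coding, whereas RefSeq lists it as a lncRNA. Its RPKM was 84.1, 93.4 and 95.8 in WT a, b and c and 119, 123 and 115 in *Mll1KO* a, b and c. All knockout libraries were above all WT libraries. The mean rose from 91.1 ± 6.20 (SD, n = 3) to 119 ± 3.93 (SD, n = 3), which is 131% of WT. The log2 fold change was 0.38 (SE 0.05, limma adjusted p = 0.000955), and 0.36 without *Mll1KO* b. With libraries scaled to an equal sum over rod genes it was 0.08 and not called (limma adjusted p = 0.252).

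*Snhg14* (ENSMUSG00000100826, chr7:59307924-59975759, minus strand) had an RPKM of 3.25, 3.23 and 3.09 in WT and of 3.11, 2.98 and 3.0 in *Mll1KO*. *Mll1KO* a lay above WT c, so the groups overlapped, and the log2 fold change was -0.06 with a 95% confidence interval of -0.17 to 0.06 (limma adjusted p = 0.460). *Meg3* (ENSMUSG00000021268, chr12:109541001-109571726, plus strand) had an RPKM of 3.05, 2.88 and 2.58 in WT and of 2.88, 2.90 and 2.56 in *Mll1KO*. The 2 groups of *Meg3* values covered nearly the same range, with library c lowest in both genotypes and a log2 fold change of -0.02 (95% confidence interval -0.17 to 0.12, limma adjusted p = 0.843). *Mirg* (ENSMUSG00000097391, chr12:109729764-109749460, plus strand) had an RPKM of 2.88, 2.75 and 2.75 in WT and of 3.29, 2.68 and 2.29 in *Mll1KO*. *Mll1KO* a held the highest and *Mll1KO* c the lowest *Mirg* value of all 6 libraries, so that the coefficient of variation was 18.3% in *Mll1KO* and 2.63% in WT. The log2 fold change of *Mirg* was -0.02 (95% confidence interval -0.22 to 0.17, limma adjusted p = 0.876). *Neat1* (ENSMUSG00000092274, chr19:5824708-5845478, minus strand) had an RPKM of 1.65, 1.32 and 2.31 in WT and of 1.80, 1.95 and 1.90 in *Mll1KO*. Here the WT libraries were the spread-out ones, WT b being the lowest and WT c the highest of the 6, with a coefficient of variation of 28.5% against 4.10% in *Mll1KO*. The log2 fold change of *Neat1* was 0.08 (95% confidence interval -0.16 to 0.32, limma adjusted p = 0.648), and it was -0.04 without WT b and 0.22 without WT c (limma adjusted p = 0.0687, within a range of 0.0687 to 0.808 over all alternatives).

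**Figure D1:**
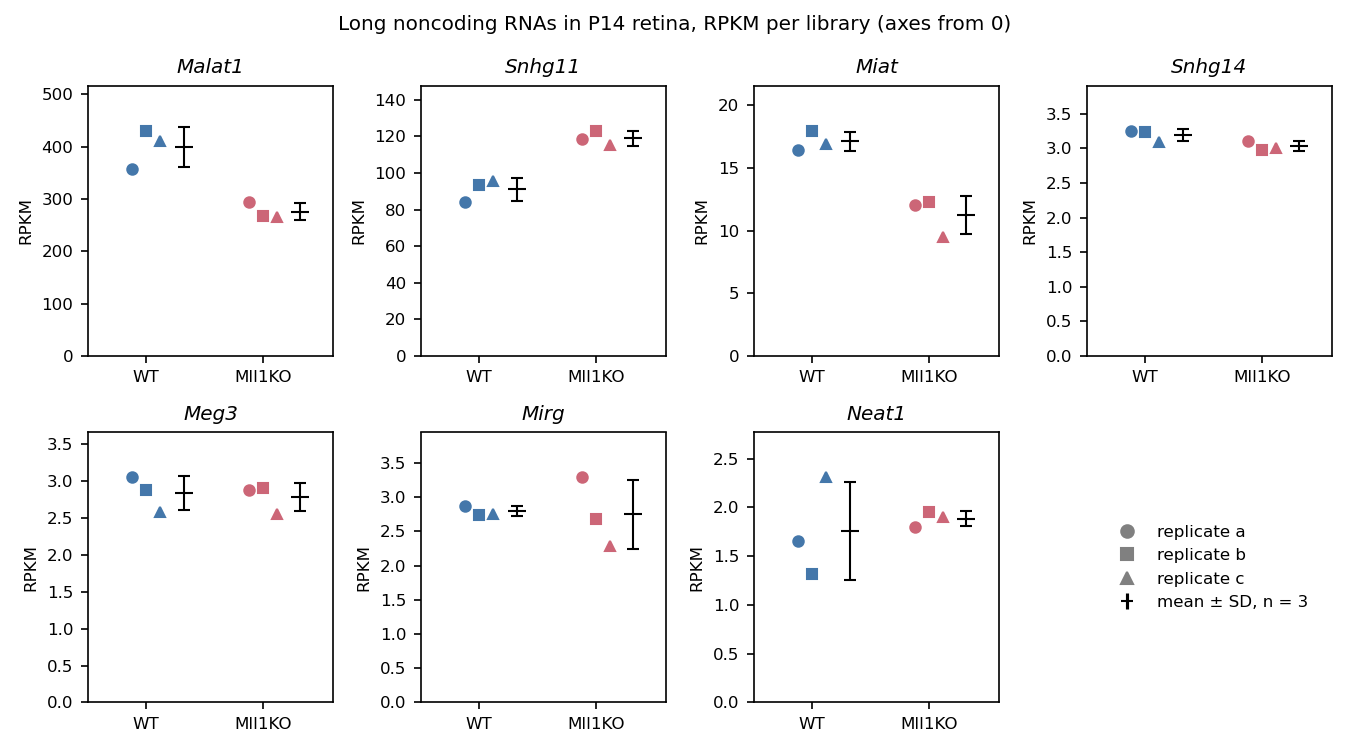
RPKM of the 7 lncRNAs in each WT and *Mll1KO* library (circle, replicate a; square, b; triangle, c), with the mean and SD of 3 libraries beside the points and each vertical axis starting at 0. The knockout points lie below the WT points for *Malat1* and *Miat* and above them for *Snhg11*, and the groups overlap in the other panels.

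Because many genes of the retina shifted, the lncRNAs were compared under other scalings of the libraries. With TMM, RLE or upper-quartile factors the same 3 genes, *Malat1*, *Miat* and *Snhg11*, were called, each in the same direction. The log2 fold changes with TMM factors were -0.50 for *Malat1*, -0.54 for *Miat* and 0.41 for *Snhg11*. The sign of *Meg3* and *Mirg* turned from -0.02 to values from 0.0005 to 0.0038 with these 3 kinds of factor, close to 0 in each case. Scaling each library so that its 19 rod genes summed to the same level lowered the median of all genes by 0.27, to -0.30. Under it *Snhg11* had a log2 fold change of 0.08 and was no longer called (limma adjusted p = 0.252), *Malat1* and *Miat* moved to -0.84 and -0.86, and *Meg3*, *Mirg* and *Snhg14* were called as lower, at -0.25, -0.25 and -0.29. *Neat1* turned to -0.12 and was not called. Taken relative to the median of all genes under that scaling, *Snhg11* was 0.38 above it, *Malat1* and *Miat* were 0.53 and 0.56 below it, and *Neat1*, *Meg3*, *Mirg* and *Snhg14* lay 0.18, 0.05, 0.05 and 0.01 above it.

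**Figure D2:**
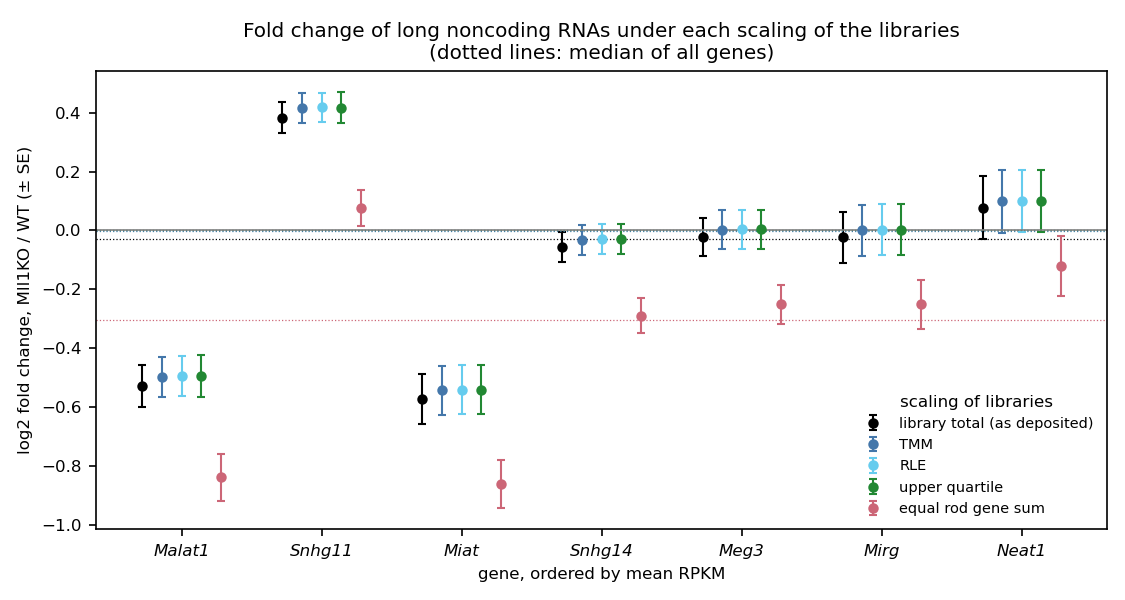
Log2 fold change (*Mll1KO* over WT, on log2(RPKM + 1), with its SE) of each lncRNA under 5 scalings of the libraries, dotted lines giving the median of all genes under each. With an equal sum over rod genes the values of all 7 genes are lower and the median of all genes is -0.30, and *Snhg11* is at 0.08.

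Markers of retinal cell types moved with the genotype too, and their part in the lncRNA values was not tested. The counts are out of the genes of each list that the table holds and stand beside 8.81% of all genes called as higher and 14.5% called as lower. Of 14 ganglion cell genes 13 were lower, and their summed RPKM was 713, 675 and 705 in WT and 553, 500 and 475 in *Mll1KO*, *Sncg* being the most abundant. Of 10 horizontal cell genes 9 were lower, with sums of 277, 274 and 259 in WT and 179, 186 and 195 in *Mll1KO*, and *Ndrg1* as the most abundant. Of 18 bipolar genes 10 were lower, with sums of 703, 693 and 683 in WT and 580, 584 and 597 in *Mll1KO*. *Malat1* and *Miat* were lower in these *Mll1KO* libraries as well, as is any gene that falls with the genotype. Rod genes went the other way, 14 of 19 being higher and 1 lower, and their sums were 20080, 19090 and 19610 in WT and 24160, 24710 and 23940 in *Mll1KO*. Of 15 cone genes 8 were higher and 1 lower (sums of 733, 742 and 802 in WT and 1055, 1167 and 1114 in *Mll1KO*, *Guca1a* most abundant), and of 16 Müller glia genes 8 were higher and 3 lower (sums of 1589, 1579 and 1721 against 1974, 2060 and 2029, *Glul* most abundant). *Snhg11* was higher in the same *Mll1KO* libraries, as is any gene that rises with the genotype. *Guca1a* went from a mean of 144 in WT to 421 RPKM in *Mll1KO*, which is much of the rise of the cone sum. The 1 cone gene called as lower was *Opn1sw*, from a mean of 94.4 to 69.1 RPKM (log2 fold change -0.44). The median log2 fold changes of the cone and Müller glia lists, 0.27 and 0.21, turned to -0.02 and -0.10 when libraries were scaled to rod genes, a scaling that by construction makes the rod sums equal. Amacrine genes were mixed, 3 of 17 higher and 6 lower, with sums from 826 to 854 in WT and from 772 to 804 in *Mll1KO*. With TMM factors 6 of them were higher and 6 lower (35.3%, beside 10.3% of all genes lower). With libraries scaled to rod genes 0 were higher and 13 lower (76.5%, beside 83.6% of all genes). No gene of these lists was at 0 in any library.

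Cells that are few in retina or come from outside it were looked at in the same way. Of 4 astrocyte genes 3 were higher, *Gfap* rising most, and of 7 endothelial genes 2 were higher and 3 lower, with summed RPKM of 11.9 to 13.1 and 85.7 to 88.8 in WT and of 20.3 to 20.6 and 64.6 to 71.2 in *Mll1KO*. These shares are 75% and 71.4% called, beside 23.3% of all genes, from few genes each. Of 5 microglia genes 1 was higher (20%), with sums of 25.2 to 26.2 in WT and 25.7 to 28.8 in *Mll1KO*. Of 5 pigment epithelium, 2 lens and 4 blood genes 0 were called by limma, and 1, 2 and 0 of them had an unadjusted limma p under 0.05, with 0 called in each list by limma-voom. The pigment epithelium sum, led by *Ttr*, was uneven within both genotypes, at 219, 115 and 328 in WT and 103, 223 and 108 in *Mll1KO*. Blood genes, led by *Hbb-bs*, had sums of 101, 80.9 and 207 in WT and 134, 178 and 212 in *Mll1KO*. Lens genes, led by *Cryab*, had sums of 38.9 to 46.2 in WT and 36.4 to 64.1 in *Mll1KO*.

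The 7 lncRNAs spanned a wide range of RPKM. Which transcripts of each were present was not tested, so the order below is one of RPKM over all annotated exons. The mean RPKM over 6 libraries was 338 for *Malat1*, 105 for *Snhg11* and 14.2 for *Miat*, and no library of one of these overlapped a library of the next. *Snhg14* (3.11), *Meg3* (2.81), *Mirg* (2.77) and *Neat1* (1.82) followed, and each overlapped its neighbour in this order. *Snhg14* was nonetheless above *Meg3* within each of the 6 libraries, and *Mirg* above *Neat1* in each, while *Meg3* exceeded *Mirg* in 4 of 6. The mean RPKM of *Malat1* was 4.38 times that of *Snhg11* in WT and 2.32 times in *Mll1KO*, a difference that was not tested.

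Genes that make or fill the nuclear bodies of *Neat1* and *Malat1* were compared next. Of 26 paraspeckle protein genes, all in the table, 8 were lower and 1 was higher (34.6% called beside 23.3% of all genes, median log2 fold change -0.08 beside -0.03). With TMM factors 6 of the 26 were lower (23.1%) and 1 higher, beside 1163 lower (10.3%) and 1257 higher of all genes. *Sfpq*, a core paraspeckle protein, fell from 84.3 ± 4.02 to 65.9 ± 2.44 RPKM (SD, n = 3; log2 fold change -0.35, limma adjusted p = 0.000772), and *Pspc1*, another of the core proteins, fell by 0.29 on the log2 scale. *Hnrnph3* was the gene of the list that rose, with a log2 fold change of 0.26, and its direction turned with libraries scaled to rod genes. *Nono*, the partner of *Sfpq*, was at -0.12 and was not called (limma adjusted p = 0.0968). Of 31 nuclear speckle and SR protein genes 6 were lower and none was higher (19.4% called, median -0.08). With TMM factors 4 of the 31 were lower (12.9%) and 1 higher, beside 1163 lower (10.3%) and 1257 higher of all genes. By limma-voom 10 of these 31 genes were called, and 10 of the 26 paraspeckle genes, beside 2902 of all 11339. When libraries were scaled to rod genes 25 of the 26 and 31 of the 31 were called as lower, beside 83.6% of all genes under that scaling. *Tra2a* had the lowest log2 fold change of this list, -0.30, followed by *Ddx39b* at -0.24, and *Son*, a scaffold protein of speckles, was at -0.17. Of 4 genes for splicing factors that bind *Miat* RNA 1 was called (25%, beside 23.3% of all genes), which is too few genes to read a share from. This gene, *Celf3*, was lower, from 136 ± 14.2 to 103 ± 2.03 RPKM (SD, n = 3; log2 fold change -0.40, limma adjusted p = 0.00236), whereas *Qk*, *Khdrbs1* and *Sf1* had -0.06, -0.05 and 0.07 and were not called.

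A ratio of 2 genes within a library does not depend on how libraries are scaled. The log2 ratio of *Neat1* to *Malat1* was -7.75, -8.35 and -7.48 in WT and -7.35, -7.10 and -7.13 in *Mll1KO*. All 3 knockout libraries were above all 3 WT libraries, by 0.66 on average (exact two-sided permutation test, p = 0.1, which is the lowest p possible with 3 libraries a group; 0.2 after Benjamini-Hochberg adjustment over the 2 ratios tested). WT b carried much of the gap, which was 0.42 without it. The log2 ratio of *Mirg* to *Meg3* was -0.08, -0.07 and 0.09 in WT and 0.19, -0.11 and -0.16 in *Mll1KO*. The groups overlapped, with a difference in means of -0.0065 (exact two-sided permutation test, p = 1, 1 after adjustment over the 2 ratios).

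*Meg3* and *Mirg* lie 158 kb apart on the same strand of chromosome 12, and the annotation places 2 microRNA genes inside *Meg3* and 14 inside *Mirg*. Of the 14 other genes of the Dlk1-Dio3 list, 4 were in the table. Within 250 kb of *Meg3* or *Mirg* the only gene measured was the other of the 2, so these 4 lie farther out. *Begain*, the nearest listed gene before *Meg3* at 473 kb, was lower in *Mll1KO* (33.1 ± 2.28 to 27.1 ± 1.09 RPKM, SD, n = 3; log2 fold change -0.28, limma adjusted p = 0.00554). *Ppp2r5c*, the nearest after *Mirg* at 698 kb, was lower too, at -0.21, whereas *Wars* and *Wdr25* had log2 fold changes of 0.0090 and 0.06 and were not called. The list thus had 2 of 4 genes lower, beside 14.5% of all genes, and 3 of 4 when libraries were scaled to rod genes, beside 83.6% of all genes, and 4 genes are too few to read a share from.

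*Snhg14* is the longest gene of the set and the annotation places 208 snoRNA genes inside it. It shares 1803 of its 26093 annotated exon bases with *Ube3a*, a ubiquitin ligase gene on the opposite strand. The sources used here do not give whether reads were counted by strand, so reads of *Snhg14* and *Ube3a* in the shared bases cannot be told apart. At its other end *Snhg14* shares 27 exon bases with *Gm38393* on its own strand. *Ube3a* was at 15.6 ± 0.879 in WT and 14.9 ± 0.442 RPKM in *Mll1KO* (SD, n = 3), with a log2 fold change of -0.06, and *Gm38393* also had -0.06, both like *Snhg14* itself and not called. Of the 10 Prader-Willi/Angelman genes measured here 0 were called by limma and 0 by limma-voom, and 1 had an unadjusted p under 0.05, while 9 were called as lower when libraries were scaled to rod genes, where 83.6% of all genes were. Log2 fold changes were -0.15 for *Ndn*, -0.07 for *Herc2*, -0.06 for *Ube3a*, -0.05 for *Nipa2*, -0.02 for *Cyfip1*, -0.0052 for *Mkrn3*, -0.0024 for *Nipa1*, 0.06 for *Tubgcp5* and 0.10 for *Gabrg3*.

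*Malat1* and *Neat1* are neighbours on chromosome 19, 22.0 kb apart on the same strand. *Frmd8*, 4.22 kb beyond *Neat1*, had a log2 fold change of -0.02 and was not called. Within 250 kb of *Malat1*, a distance chosen after the values were seen, 17 other genes were in the table, of which 3 were lower (*Sipa1*, *Ehbp1l1* and *Capn1*) and 1 was higher (*Ltbp3*, log2 fold change 0.43). These 4 genes are 23.5% of the 17, beside 23.3% of all genes. Within the same distance of *Neat1* 6 of 21 genes were called, *Malat1* among them, and of *Miat* 1 of 6, *Sez6l*, which was lower. By limma-voom 3, 5 and 1 genes around *Malat1*, *Neat1* and *Miat* were called, beside 2902 of all 11339 genes. An unadjusted limma p under 0.05 was found for 5, 7 and 3 genes around them, beside 4186 of all genes. Around *Meg3*, *Mirg*, *Snhg11* and *Snhg14* there were 1, 1, 6 and 2 genes, with 0 called by limma, and 1 of those around *Snhg11* was called by limma-voom and had an unadjusted limma p under 0.05. For *Miat*, *Tpst2* at 47.3 kb had a log2 fold change of 0.03 and was not called. *Mn1*, the nearest listed gene on the other side at 756 kb, fell from 2.26 ± 0.0889 to 1.48 ± 0.118 RPKM (SD, n = 3; log2 fold change -0.39, limma adjusted p = 0.000971). Beside *Snhg11*, *Snhg17* at 14.1 kb and *Ralgapb* at 23.7 kb both had a log2 fold change of -0.09 and were not called.

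**Figure D3:**
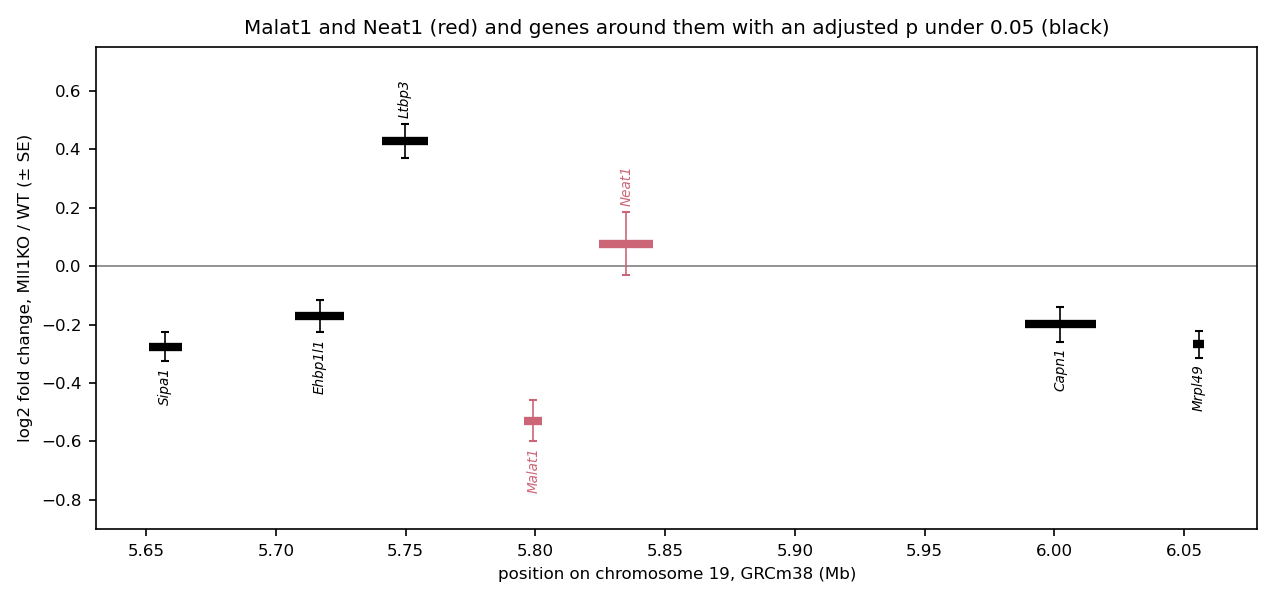
Log2 fold change (*Mll1KO* over WT, with its SE) of *Malat1*, *Neat1* and the called genes within 250 kb of either, drawn over their position on chromosome 19 in GRCm38, each bar as long as the gene. *Malat1* is the lowest of those drawn, at -0.53, and *Neat1* is at 0.08.

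Other lncRNAs were counted for comparison. Of 9 further snoRNA host genes measured here 1 was called (11.1%, beside 23.3% of all genes), and 7 were called as lower when libraries were scaled to rod genes, where 83.6% of all genes were. The 1 called with the library totals was *Snhg15* (6.31 ± 0.863 to 5.01 ± 0.387 RPKM, SD, n = 3; log2 fold change -0.28, limma adjusted p = 0.0440), and that call was lost with TMM factors and with limma-voom. Its groups overlapped in 1 library of each genotype, and the median log2 fold change of the 9 hosts was -0.10. Of 6 other lncRNAs of imprinting or X inactivation 1 was called (16.7%, beside 23.3% of all genes). This was *Kcnq1ot1*, which was lower, from 1.23 ± 0.0828 to 0.858 ± 0.129 RPKM (SD, n = 3; log2 fold change -0.27, limma adjusted p = 0.0130). Of 14 other neural, retinal or general lncRNAs 2 were higher and 4 lower (42.9% called, beside 23.3% of all genes). With libraries scaled to rod genes 0 of them were higher and 12 lower (85.7%, beside 83.6% of all genes). *Six3os1*, the opposite strand transcript of the eye field gene *Six3*, fell from 18.0 ± 0.971 to 8.03 ± 0.385 RPKM (SD, n = 3), with a log2 fold change of -1.07 (limma adjusted p = 3.83e-06), and *Otx2os1*, beside *Otx2*, fell by 0.67. *Vax2os* rose, with a log2 fold change of 0.41, and so did *6330403K07Rik*, with 0.19. The direction of *6330403K07Rik* turned with libraries scaled to rod genes. Among all 253 genes that GENCODE annotates with a long noncoding biotype, 32 were higher and 37 lower, 27.3% in all beside 23.3% of all genes, with a median log2 fold change of -0.02. The balance turned to 37 higher and 32 lower with TMM factors, beside 1257 higher and 1163 lower of all genes. When libraries were scaled to rod genes 14 were higher and 178 lower (70.4%, beside 83.6% of all genes). *Miat* and *Malat1* were among the genes called as lower with the library totals, and *Snhg11* is not in this class because of its protein coding biotype.

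The genes whose values followed each lncRNA most closely over the 6 libraries are given as a description, by Pearson's r of log2(RPKM + 1). For *Malat1* these were *Cdh23* (0.996), *B4galt1* (0.996) and *Zzef1* (0.996), and for *Miat* *Rad54l2* (0.998), *Arhgef7* (0.998) and *C230004F18Rik* (0.997). For *Snhg11* they were *Sfxn3* (0.996), *Aig1* (0.995) and *Tmbim6* (0.994). In these 3 sets the 6 points fall into the 2 genotypes, and 8 of the 9 genes were themselves called, *Arhgef7* being the exception (limma adjusted p = 0.0521). *Snhg14* was followed by *Ccpg1os* (0.997), *Tvp23a* (0.992) and *Nono* (0.992), *Meg3* by *Sos1* (0.966), *Fkbp2* (0.959) and *Foxj2* (0.948), *Mirg* by *Wdr18* (0.993), *Panx2* (0.979) and *Spata2l* (0.977), and *Neat1* by *Grn* (0.968), *Psmd5* (0.967) and *Hbegf* (0.967). None of these 12 genes was called. For each lncRNA the 3 genes were picked from the 11338 others, with 6 libraries each.

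MLL1 has a CXXC domain that binds DNA with unmethylated CG dinucleotides, and many of its known target promoters are rich in CG. The promoters of the 3 called lncRNAs are therefore printed with that of *Meg3*, which was not called, from RefSeq on GRCm38.p6, where 6 of the 7 lncRNAs had an entry. Each window runs from 250 bases before to 50 bases after the RefSeq start, 5′ to 3′ on the gene's strand, with every CG in capitals.
Miat (chr5:112228899-112229198, minus strand): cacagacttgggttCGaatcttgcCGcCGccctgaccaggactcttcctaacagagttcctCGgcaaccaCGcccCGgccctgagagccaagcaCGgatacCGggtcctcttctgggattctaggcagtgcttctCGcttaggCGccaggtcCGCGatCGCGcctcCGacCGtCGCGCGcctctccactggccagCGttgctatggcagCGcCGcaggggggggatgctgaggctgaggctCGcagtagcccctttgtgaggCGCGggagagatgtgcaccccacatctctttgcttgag
Malat1 (chr19:5802623-5802922, minus strand): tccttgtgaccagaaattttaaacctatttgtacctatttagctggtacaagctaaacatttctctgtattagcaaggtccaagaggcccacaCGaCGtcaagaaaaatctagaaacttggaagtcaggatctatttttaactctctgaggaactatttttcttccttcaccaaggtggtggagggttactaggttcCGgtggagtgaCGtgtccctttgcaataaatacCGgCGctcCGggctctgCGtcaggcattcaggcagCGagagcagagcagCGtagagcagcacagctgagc
Snhg11 (chr2:158375463-158375762, plus strand): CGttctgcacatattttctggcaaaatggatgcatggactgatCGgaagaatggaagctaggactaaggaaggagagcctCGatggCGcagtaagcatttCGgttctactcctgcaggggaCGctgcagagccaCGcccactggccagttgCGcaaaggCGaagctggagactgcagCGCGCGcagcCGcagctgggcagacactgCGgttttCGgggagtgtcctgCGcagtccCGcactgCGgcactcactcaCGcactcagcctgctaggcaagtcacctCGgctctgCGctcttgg
Meg3 (chr12:109540746-109541045, plus strand): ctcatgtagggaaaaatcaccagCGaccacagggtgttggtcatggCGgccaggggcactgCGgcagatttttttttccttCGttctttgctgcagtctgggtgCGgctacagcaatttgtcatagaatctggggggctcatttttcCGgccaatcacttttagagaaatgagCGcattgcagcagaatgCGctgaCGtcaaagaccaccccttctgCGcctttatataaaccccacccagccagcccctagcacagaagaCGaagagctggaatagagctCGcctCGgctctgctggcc
The *Miat* window holds 25 CG, as many or more than which are found in 18.4% of the 32851 promoters of the same length, and *Snhg11* holds 21 (24.8% of promoters). These promoters were not limited to genes measured in this retina, and the shares among measured genes were not tested. *Malat1*, which fell about as much as *Miat*, holds 10 CG (43.5% of promoters), and *Meg3* holds 13 (37.9%), beside a median of 7 over all promoters. A second *Meg3* entry holds 1 CG (94.6%), and of the other lncRNAs not called *Mirg* holds 10 (43.5%), as many as *Malat1*, and *Snhg14* holds 2 (85.9%). The second *Meg3* window and the *Mirg* window lie wholly inside the GENCODE gene, and the *Snhg14* window lies wholly outside it. The *Miat* window lies wholly within exons of the GENCODE gene, which starts further upstream than the RefSeq gene, while 250, 175 and 255 of the 300 bases lie outside the gene for *Malat1*, *Snhg11* and *Meg3*. Of the 2 lncRNAs that fell, 1 thus had a window above the upper quartile of all promoters (20 CG) and the other had one between the median and that quartile.

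*Miat* RNA is known for copies of the motif UACUAAC, which is also the branch point sequence that the splicing factor SF1 recognises. Of its annotated transcripts, the one with the most copies, of 9163 bases, holds TACTAAC (as DNA, searched on the transcript strand) 6 times, at positions 4941, 5041, 5066, 5589, 5603 and 5623. The motif occurs at least once in 5.64% of 55341 annotated genes, and 3 other genes reach 6 copies. Of the other lncRNAs of the set *Neat1* holds 1 copy and the remaining 5 hold none. The stretch with the 3 closest copies, in capitals, shows how tightly they are packed.
Miat (chr5:112216752-112216812, minus strand): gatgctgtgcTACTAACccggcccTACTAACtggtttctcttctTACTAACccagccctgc

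*Malat1* and *Neat1* share another feature at the 3′ end. Neither mature *Malat1* nor the long form of *Neat1* ends in an ordinary poly(A) tail, since RNase P cuts the primary transcript behind an A-rich tract that is encoded in the genome and pairs with U-rich motifs before it in a triple helix. The RNA for these libraries was taken as mRNA and depleted of rRNA, in the same way for both genotypes per the labels. In the 6983 base *Malat1* transcript the tract lies in the window from position 6598 to 6697, 286 bases before the annotated end, and in *Neat1* it closes the annotated transcript of 20771 bases. The capitals mark each run of at least 5 T and the last 10 bases of *Neat1*, AAAAGCAAAA, wherever they occur on the transcript strand. The *Neat1* window, of 60 bases against 100 for *Malat1*, holds no T run of that length, so T runs are marked in *Malat1* only.
Malat1 (chr19:5795976-5796075, minus strand): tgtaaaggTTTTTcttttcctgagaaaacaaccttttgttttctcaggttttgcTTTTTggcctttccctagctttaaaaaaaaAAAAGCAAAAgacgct
Neat1 (chr19:5824708-5824767, minus strand): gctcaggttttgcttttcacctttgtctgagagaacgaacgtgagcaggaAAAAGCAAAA
The motif AAAAGCAAAA is present in transcripts of 1.75% of annotated genes, among them *Malat1*, *Neat1* and *Snhg11* of the set, and 6 genes have a transcript that ends in it, *Neat1* being 1 of them. Of these 2 neighbours, *Malat1* fell and *Neat1* was not called, and the difference between them is the ratio tested above.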

How the data were processed

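RNA-seq of 3 *Mll1KO* and 3 WT retina samples was taken as deposited. mRNA was extracted, fragmented and reverse transcribed with random primers, and rRNA was depleted. Per the submitters' processing notes the authors used STAR 2.0.4b, Subread featureCounts 1.45, edgeR 3.17.9 and mm10, whereas the Methods name an Ensembl GRCh38 build and another edgeR version. Whether reads were counted by strand is not given in the sources used here. The deposited values are RPKM of genes with a CPM above 5 in at least 5 samples, and the authors' own fold changes and p-values were not used. The table had 11404 lines, of which those of 59 repeated gene IDs were identical and merged, leaving 11339 genes, 11329 of them in GENCODE M21. Symbols turned into dates were restored for 18 genes. Whole reads were recovered from RPKM for 100% of genes, within 0.01 reads, with the annotated exon length where it gave whole reads (53.3% of genes, 6 of the 7 lncRNAs) and otherwise the smallest length that did, as for *Snhg14* (25799 bases, 26093 annotated) and *Xist*. For the lncRNAs 4 to 60 lengths gave whole reads, so the printed reads of a gene rest on the length chosen, while RPKM values do not.

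Genotypes were compared with limma 3.58.1 in R 4.3.3 (lmFit, eBayes with trend) on log2(RPKM + 1) without covariates, p-values of all 11339 genes being adjusted by the Benjamini-Hochberg method and called under 0.05. Ratios were compared with exact permutation tests in Python 3.11.15. Of 4 planned ratios, *Rian* to *Meg3* and *Snhg14* to *Snrpn* were not analysed here. Genes were named from a rule that lists the lncRNAs, *Kmt2a*, *Xist*, up to 2 called genes at each end of a list, genes of the 2 lists made for imprinted clusters, nearest genes and the 3 closest correlates. *Qk*, *Khdrbs1*, *Sf1* and genes within 250 kb were chosen after their values were seen. *Son* and *Nono*, a correlate of *Snhg14*, fall under the rule, but their place among the nuclear body genes was chosen after their values were seen. The lncRNAs and lists were chosen with earlier results of these data known. Alternatives changed the scaling, the pseudocount (0.1 and 5), a filter on mean RPKM (at least 1), the test (limma-voom), the variance trend, a replicate block and the samples. The procedure was tested on simulated data.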

Additional observations from a re-analysis of the deposited data

How the results depend on the processing

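Over 16 alternatives *Malat1*, *Miat* and *Kmt2a* kept their direction and their call, with log2 fold changes of -0.84 to -0.47, -0.86 to -0.45 and -0.99 to -0.61. With libraries scaled to an equal sum over rod genes 9696 genes were called and 5 of the 7 lncRNAs, *Snhg11* was at 0.076 and not called, *Meg3*, *Mirg* and *Snhg14* were called at -0.25, -0.25 and -0.29, and *Neat1* turned to -0.12. In the other 15 alternatives the same 3 lncRNAs were called. *Meg3* turned to 0.002 with TMM, 0.0038 with RLE and 0.0037 with upper-quartile factors, and *Mirg* to 0.0005, 0.0023 and 0.0022. With 1 library left out at a time, 1704 (without WT b) to 2536 genes were called, 1757 without *Mll1KO* c, and 3 to 3 lncRNAs. *Meg3* then ranged from -0.070 to 0.021, *Mirg* from -0.12 to 0.067, *Neat1* from -0.040 to 0.22, *Snhg11* from 0.33 to 0.42 and *Snhg14* from -0.07 to -0.05. The log2 ratio of *Mirg* to *Meg3* ranged from -0.12 to 0.060, and that of *Neat1* to *Malat1* from 0.42 to 0.85. With the replicate letter as a block 2242 genes were called. Samples of the same letter had correlations of deviations of -0.039, -0.19 and -0.007 (a, b, c), and no sample correlated best with its own letter. The other alternatives gave 2402 to 2902 called genes. The naming rule listed 62 other called genes, not all of them printed above, and *Sipa1*, *Ehbp1l1*, *Capn1*, *Ltbp3* and *Sez6l* were not among them. Of these 62, at least 52 kept call and direction in each alternative but the scaling to rod genes. There 49 did, 4 lost the call and 9 turned, *6330403K07Rik*, *Hnrnph3*, *Sfxn3*, *Aig1* and *Tmbim6* among them. The cause of these changes was not tested. The ratios of *Rian* to *Meg3* and *Snhg14* to *Snrpn* were not run. The 4 lncRNAs not called had 300 to 1999 reads per library. The parts of counting error and of spread between samples in their small differences were not tested.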
